A study of Mus musculus with 6 samples.

Results

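Glycolysis breaks glucose down to pyruvate in the cytosol, and the pentose phosphate pathway branches off after the first phosphorylation to make NADPH and ribose for nucleotides. Activated lymphocytes and myeloid cells are known for a high use of both routes, with much of the pyruvate turned into lactate and exported. The genes described here are 34 enzymes, transporters and regulators of these routes, listed by name, with no measured value in the rule. The list was drawn up with earlier results of these data known. Each was read through 1 probe set, the one with the highest mean over the 6 arrays among those the annotation assigns to that gene alone. 30 of the 34 could be measured, out of 17097 genes measured in the same way. Gpi1, Eno1 and G6pdx were not listed in the annotation used here, and Pgam1 shared its probe set with a pseudogene, so these 4 have no value.

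The samples were CD11c+ and CD11c- T cells from the blood of 3 naïve female C57BL/6 mice, 6 to 8 weeks old, named A, C and D. Both fractions of a mouse were sorted from the same blood as CD3+ CD62L- CD44high cells, 300 cells a sample, and their cDNA was amplified and hybridised to 1 Affymetrix array each. CD11c, encoded by Itgax, is an integrin chain of myeloid cells, dendritic cells and some lymphocytes. The labels describe a group of 6 females given 3 mg of the progestin Depo-Provera 5 days before euthanasia, shared by both fractions, while the methods give another interval. Values are log2 RMA signals, on which 1 unit is a doubling, and differences are CD11c+ minus CD11c- within a mouse. The limit of detection was put at 5.76, the 95th percentile over 37 genes that mark other tissues, and a mean at or under it is called not above background. The number of arrays limits the precision.

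The sort marker followed the labels. Itgax had 8.93, 9.06 and 8.93 in the CD11c+ samples of mice A, C and D, against 5.80, 3.88 and 4.12 in the CD11c- samples, a log2 difference of 4.37 (limma, adjusted p = 0.0387). All 4 CD3 chains were above background in both fractions, at a mean of 9.83 to 10.15 in CD11c+ samples and 10.72 to 10.87 in CD11c- samples. Genes of other blood cells moved with the fractions. Of 19 monocyte and macrophage genes, 11 were higher and 0 lower in CD11c+ cells. The mean of the list was 8.05 to 8.38 in CD11c+ samples and 5.40 to 5.59 in CD11c- samples. In CD11c+ cells alone 11 of the 19 were above background, among them Lyz2, Csf1r, Itgam and Spi1. A further 6 were above it in both fractions and 2 in neither. Ms4a6c went the other way, lower in CD11c+ cells without overlap, by a log2 difference of -1.02. Of 10 basophil and mast cell genes, 8 were higher and 0 lower, with a mean of 7.44 to 8.16 in CD11c+ samples and 3.67 to 3.76 in CD11c- samples. Among 9 dendritic cell genes 3 were higher and 0 lower, with a mean of 6.38 to 6.78 in CD11c+ samples and 4.73 to 4.87 in CD11c- samples. Among 9 NK cell genes 4 were higher and 1 lower, with a mean of 7.65 to 7.98 in CD11c+ samples and 6.34 to 6.35 in CD11c- samples. Among 17 T cell genes 0 were higher and 2 lower, with a mean of 8.32 to 8.66 in CD11c+ samples and 9.35 to 9.52 in CD11c- samples. Among 10 neutrophil genes 0 were called, among 9 B cell genes and among 8 genes of red cells and platelets 1 was higher, and of Cd4, Cd8a and Cd8b1 the last was higher. Cd4 and Cd8a did not pass, but neither overlapped between fractions. In CD11c+ cells Cd4 lay lower, by a log2 difference of -2.50, and Cd8a higher, by 1.54. In sorted bulk samples fewer cells of a type and less RNA per cell cannot be told apart. The monocyte, basophil, dendritic, NK and T cell lists and the Cd4 and Cd8 genes differed between the same samples as every difference given below. Their part in those differences was not tested.

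Of the 30 enzymes, transporters and regulators, 1, the glucose transporter Slc2a3, passed an adjusted p of 0.05 as higher and 0 as lower, against 1.4% and 0.222% of all genes, so the count of calls does not set the group apart. Before adjustment, 12 of the 30 had a p under 0.05 with the CD11c+ side higher, where 7.38% of all genes did, and 2 with it lower, where 7.42% did. In 13 of the 30 all CD11c+ samples lay above all CD11c- samples, against 7.48% of all genes, and in 3 all lay below, against 12.5%. Among the 6366 genes with a mean above background those shares were 12.2% and 14.1%. CD11c+ cells were higher in 3 of 3 mice for 16 of the 30, where 12.6% of all genes were, and lower in 3 of 3 for 4, where 26.5% were. Because the 30 were chosen with earlier results known, these shares describe them and are no test.

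With arrays centred on the CD3 chains, which put the median log2 difference of all genes at 0.65, all CD11c+ samples lay above for 24 of the 30, where 68% of all genes did. This centring raised the log2 difference of every gene by the same amount. A turn above 0 under it is therefore no reading of that gene alone. The median log2 difference of the 30 was 0.33, at 0.20 in mouse A, 0.20 in mouse C and 0.43 in mouse D, and it was -0.09 over all genes. Without mouse D the median was 0.16. The level in a fraction was above background in both fractions for 19 of the 30, in CD11c+ cells alone for 4 (Hk2, Slc16a3, Pfkfb4 and Pdk3) and in CD11c- cells alone for 3 (Pfkm, Ldhb and Pdk1). Aldoc, Eno2, Slc16a1 and Fbp1 were above it in neither, and nothing can be read from their differences.

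**Figure D1:**
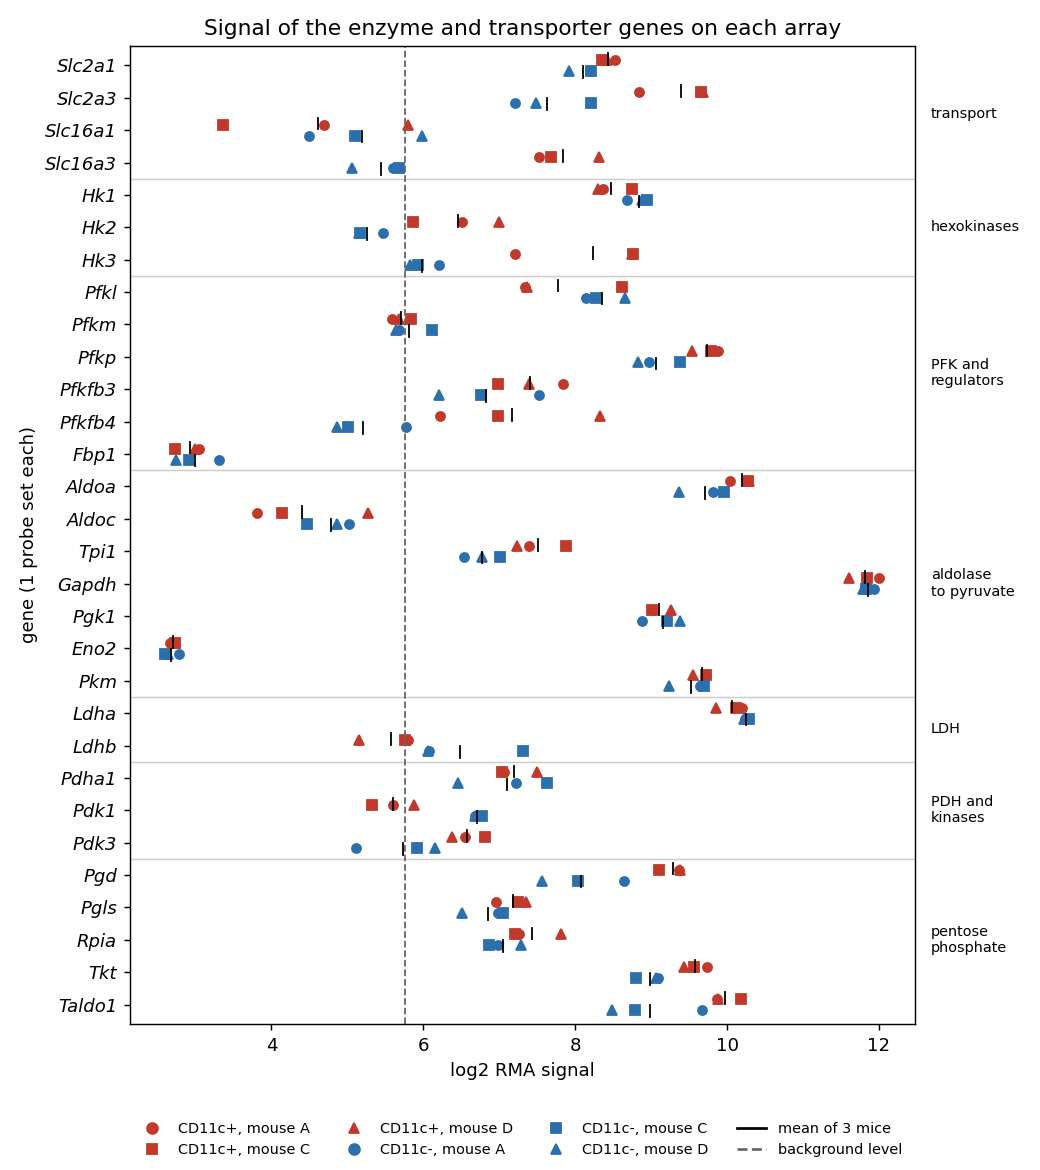
Log2 RMA signal (x axis) of the 30 genes (y axis, grouped by step), with red points for CD11c+ and blue points for CD11c- samples, a shape for each mouse, and black bars for fraction means. The broken vertical line marks 5.76, under which a mean is not above background. The red points of Slc2a3, Slc16a3, Hk3 and Pgd lie to the right of all their blue points, while those of Gapdh and Pgk1 overlap them.

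Slc2a3 encodes GLUT3, a glucose carrier of high affinity found on neurons and white blood cells. It had 8.84, 9.65 and 9.69 in the CD11c+ samples of mice A, C and D, against 7.21, 8.21 and 7.48 in the CD11c- samples. Every CD11c+ sample lay above every CD11c- sample. The log2 difference was 1.76 (SE 0.197, 3.39-fold), higher in 3 of 3 mice, with an adjusted p of 0.0493 by limma. This lies just inside the threshold, and the adjusted p was 0.23 without mouse A, 0.119 without mouse C and 0.0723 without mouse D. The gene has 3 further probe sets, which gave log2 differences of 2.33, 2.29 and 2.18 with adjusted p of 0.049, 0.0186 and 0.0345, so all 4 readings of the transcript passed.

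Slc2a1, which encodes GLUT1, the glucose carrier of most cells and the one best known from activated T cells, had 8.52, 8.35 and 8.42 in CD11c+ samples, against 8.20, 8.21 and 7.92 in CD11c- samples. The samples did not overlap, but the log2 difference of 0.32 (SE 0.141) did not pass (adjusted p = 0.446), and its second probe set gave 0.14 with overlap. The difference of Slc2a3 exceeded that of Slc2a1 by 1.31 in mouse A, 1.30 in mouse C and 1.70 in mouse D on the log2 scale. This pair and that of Hk3 and Hk1 below were picked after their values were seen, and are given with no test.

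Slc16a3 encodes MCT4, a lactate exporter of strongly glycolytic cells. It had 7.52, 7.68 and 8.31 in CD11c+ samples, against 5.60, 5.68 and 5.06 in CD11c- samples. All CD11c- samples lay under the background level and all CD11c+ samples clearly over it. The CD11c+ mean lay 4.21-fold over that level, a figure that leaves out the spread between mice. The fitted log2 difference of 2.39 (SE 0.315) had an adjusted p of 0.0653, just outside the threshold. The related lactate carrier Slc16a1, MCT1, averaged 4.62 ± 1.22 in CD11c+ cells and 5.19 ± 0.75 in CD11c- cells (SD, n = 3 each), not above background in either.

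Promoter sequences were set beside these values, since several genes of glycolysis are textbook targets of the hypoxia-inducible factors, whose binding core is ACGTG. RefSeq windows of 300 bases on GRCm38.p6, from 250 bases before to 50 after a start, were matched for 29 of the 30 genes. Slc2a3, the only gene of the 30 past the adjusted p, had no window and is left out of what follows. The letters ACGTG, searched on both strands, were in a window of 15 of the 29 genes (51.7%), against 21.8% of 27025 genes. A gene counted if any of its windows held the letters, so a gene with more windows had more chances to match. More than 1 window was present for 9 of the 29, and the 27025 genes had 32851 windows. The E-box CACGTG, which contains ACGTG, was in 4 of the 29 (13.8%), against 8.09%, and GAGGAAGT, a site of the myeloid factor PU.1, was in 1 (3.45%), against 3.69%. The median log2 difference was 0.14 for the 15 genes with ACGTG and 0.36 for the 14 without it. The windows of Slc16a3, described above, of Hk3, a hexokinase described next, and of Ldha, which lay lower in CD11c+ cells by 0.19, are shown because all carry the core; capitals mark ACGTG, or CACGT as read from the other strand, and their overlap in CACGTG. A match is a description of these letters and says nothing of binding.
Slc16a3, chr11:120948817-120949116, plus strand: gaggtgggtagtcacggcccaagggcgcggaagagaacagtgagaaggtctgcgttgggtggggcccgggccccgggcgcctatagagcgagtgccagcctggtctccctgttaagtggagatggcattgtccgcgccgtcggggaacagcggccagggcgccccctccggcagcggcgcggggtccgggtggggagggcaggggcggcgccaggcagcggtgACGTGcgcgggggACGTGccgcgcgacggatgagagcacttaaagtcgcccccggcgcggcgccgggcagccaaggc
Hk3, chr13:55021336-55021635, minus strand: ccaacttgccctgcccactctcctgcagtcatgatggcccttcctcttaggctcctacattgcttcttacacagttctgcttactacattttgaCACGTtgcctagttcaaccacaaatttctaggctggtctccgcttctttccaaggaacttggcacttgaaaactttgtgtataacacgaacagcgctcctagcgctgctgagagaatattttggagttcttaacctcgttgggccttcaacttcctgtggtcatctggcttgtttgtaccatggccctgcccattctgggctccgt
Ldha, the first of 2 starts, chr7:46845554-46845853, plus strand: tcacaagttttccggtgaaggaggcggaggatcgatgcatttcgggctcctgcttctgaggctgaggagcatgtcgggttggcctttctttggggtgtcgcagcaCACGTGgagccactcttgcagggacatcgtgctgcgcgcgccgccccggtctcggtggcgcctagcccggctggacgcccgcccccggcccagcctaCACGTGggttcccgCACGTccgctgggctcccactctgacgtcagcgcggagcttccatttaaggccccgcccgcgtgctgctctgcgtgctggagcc
The window of Slc16a3 held 2 matches to the core, that of Hk3 held 1 and that of Ldha held 5, which include both strands of 2 E-boxes.

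Hexokinases phosphorylate glucose in the first step of glycolysis. Hk3, a form of myeloid cells, had 7.21, 8.76 and 8.74 in CD11c+ samples, against 6.20, 5.93 and 5.83 in CD11c- samples. The samples did not overlap, and mouse A had the smallest gap, 1.01 against 2.84 in mouse C and 2.92 in mouse D. The log2 difference of 2.25 (SE 0.437) had an adjusted p of 0.131. Hk2, an inducible form bound to mitochondria, had 6.51, 5.87 and 6.99 in CD11c+ samples, against 5.47, 5.17 and 5.15 in CD11c- samples, and all CD11c- samples lay under the background level. The CD11c+ mean of Hk2 lay 1.62-fold over that level, with a fitted log2 difference of 1.19 (SE 0.259, adjusted p = 0.157).

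Hk1, the form of most tissues, went the other way, with 8.37, 8.75 and 8.30 in CD11c+ samples, against 8.68, 8.94 and 8.89 in CD11c- samples. It was lower in 3 of 3 mice, but the samples overlapped and the log2 difference of -0.36 did not pass (adjusted p = 0.405). Its second probe set gave 0.09, and the difference was 0.38 with arrays centred on the CD3 chains. Within each mouse the difference of Hk3 exceeded that of Hk1 by 1.31 to 3.50.

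Phosphofructokinase commits fructose 6-phosphate to glycolysis, with a liver, a muscle and a platelet form. The platelet form Pfkp had 9.88, 9.79 and 9.54 in CD11c+ samples, against 8.97, 9.38 and 8.83 in CD11c- samples. These did not overlap, with a log2 difference of 0.68 (SE 0.156, adjusted p = 0.177). The liver form Pfkl had 7.34, 8.62 and 7.36 in CD11c+ samples, against 8.14, 8.27 and 8.65 in CD11c- samples. The mice disagreed, with mouse C higher and the others lower in CD11c+ cells, and the log2 difference was -0.58 (SE 0.35, adjusted p = 0.586). The muscle form Pfkm lay near the background level, with 5.59, 5.84 and 5.69 in CD11c+ samples, against 5.68, 6.11 and 5.64 in CD11c- samples, and differed by -0.10 (adjusted p = 0.8).

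Pfkfb3 and Pfkfb4 make fructose 2,6-bisphosphate, an activator of phosphofructokinase. Pfkfb4 had 6.22, 6.98 and 8.32 in CD11c+ samples, against 5.77, 5.00 and 4.86 in CD11c- samples. The gap ran over a wide range, 0.44 in mouse A, 1.98 in mouse C and 3.47 in mouse D. The log2 difference of 1.96 (SE 0.599) had an adjusted p of 0.282. The CD11c+ mean lay 2.66-fold over the background level, and the CD11c- mean was not above it. Pfkfb3 averaged 7.41 ± 0.43 in CD11c+ cells and 6.83 ± 0.66 in CD11c- cells (SD, n = 3 each), higher in 3 of 3 mice but overlapping, with an adjusted p of 0.421. Fbp1, which encodes fructose 1,6-bisphosphatase of gluconeogenesis, averaged 2.92 ± 0.17 in CD11c+ cells and 2.99 ± 0.29 in CD11c- cells (SD, n = 3 each), not above background in either.

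**Figure D2:**
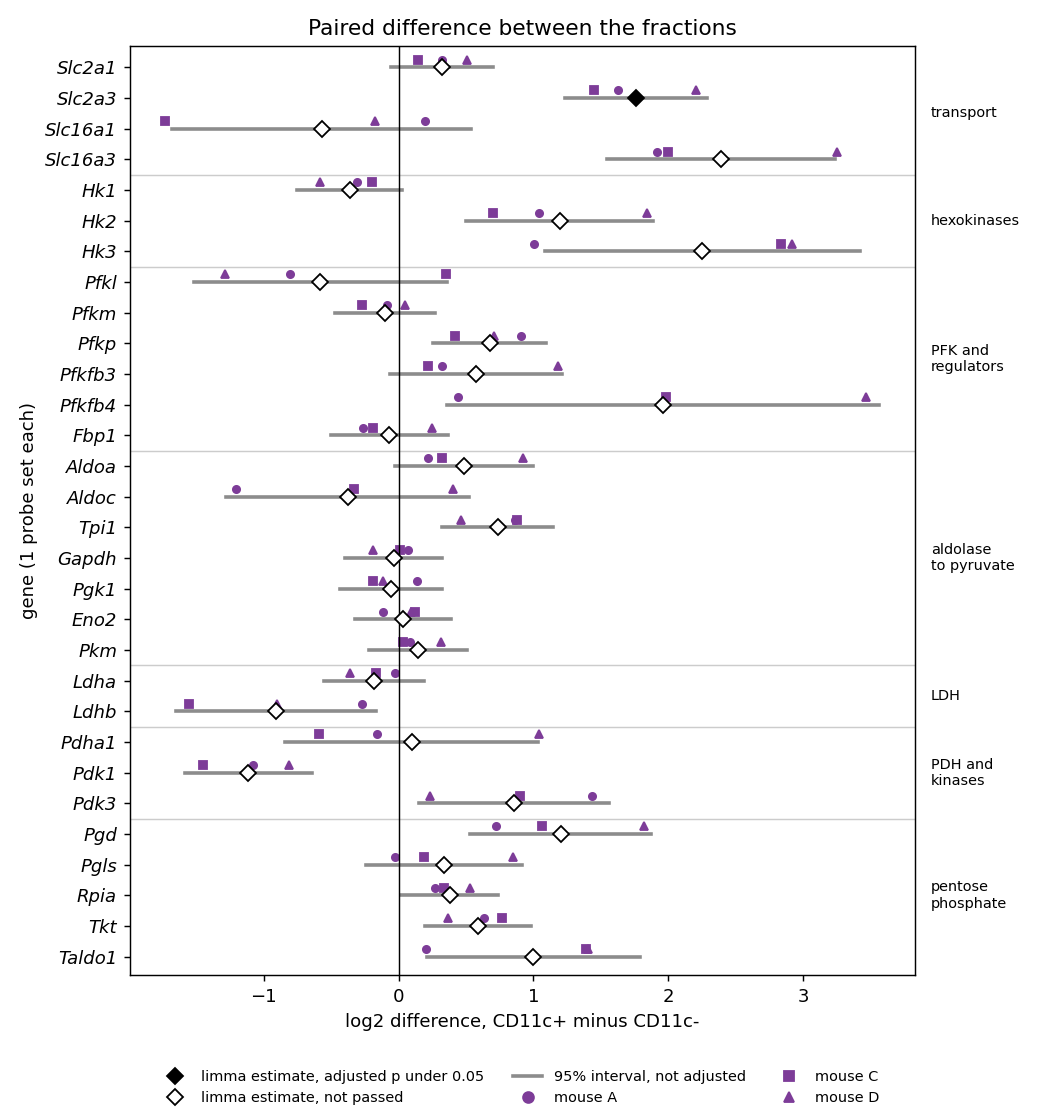
Log2 difference, CD11c+ minus CD11c- (x axis), of the 30 genes (y axis, grouped by step), with a small purple point for each mouse, a diamond for the limma estimate and a grey line for its 95% interval, not adjusted for the number of genes. The diamond of Slc2a3 alone is filled, for an adjusted p under 0.05, and the 5 pentose phosphate genes all lie to the right of 0.

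From aldolase to pyruvate 7 genes were measured, of which 0 passed the adjusted p and 5 were above background in both fractions. In 2 of these 5, Tpi1 and Aldoa, all CD11c+ samples lay above all CD11c- samples. That was so for 7.48% of all genes and 12.2% of those with a mean above background. Tpi1, triose phosphate isomerase, had 7.39, 7.88 and 7.23 in CD11c+ samples, against 6.53, 7.01 and 6.77 in CD11c- samples. The log2 difference of 0.73 (SE 0.154) had an adjusted p of 0.149. Aldoa, the main aldolase of blood cells, averaged 10.20 ± 0.14 in CD11c+ cells and 9.71 ± 0.31 in CD11c- cells (SD, n = 3 each), with a log2 difference of 0.49 (adjusted p = 0.397). Its other 3 probe sets gave 0.24, 0.30 and 0.24, each with overlap. Aldoc, the aldolase of brain, and Eno2, the neuronal enolase, lay under the background level, Aldoc at 4.41 ± 0.76 in CD11c+ cells and 4.78 ± 0.28 in CD11c- cells and Eno2 at 2.71 ± 0.04 in CD11c+ cells and 2.68 ± 0.09 in CD11c- cells.

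Gapdh, Pgk1 and Pkm overlapped between fractions. Gapdh, glyceraldehyde phosphate dehydrogenase, had 12.01, 11.84 and 11.61 in CD11c+ samples, against 11.94, 11.83 and 11.79 in CD11c- samples. Its log2 difference was -0.04, with a 95% interval of -0.39 to 0.32, and it was 0.06 after cyclic loess and 0.70 with arrays centred on the CD3 chains. Pgk1, phosphoglycerate kinase, had 9.02, 9.02 and 9.26 in CD11c+ samples, against 8.88, 9.21 and 9.38 in CD11c- samples, and differed by -0.06 with an interval of -0.43 to 0.32. It was 0.68 with arrays centred on the CD3 chains. The second probe set of Pgk1, above background in both fractions, gave 0.35 with overlap (adjusted p = 0.549). Pkm, pyruvate kinase of most tissues, had 9.73, 9.72 and 9.55 in CD11c+ samples, against 9.64, 9.69 and 9.24 in CD11c- samples, and differed by 0.14 with an interval of -0.22 to 0.51. Slc2a1's difference of 0.324 lay inside the interval of Pkm, but just over the upper ends for Gapdh (0.320) and Pgk1 (0.319). A fall of that size lay inside the intervals of Gapdh and Pgk1. Gapdh, Ldha and Tpi1 have many near-identical pseudogenes, whose part in the signal was not tested.

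Lactate dehydrogenase turns pyruvate into lactate and back. By the probe sets used, both of its subunits lay lower in CD11c+ cells in 3 of 3 mice, where 26.5% of all genes did. Centring the arrays on the CD3 chains, which raised every gene by the same amount, put Ldha higher by 0.55. Ldha had 10.20, 10.12 and 9.86 in CD11c+ samples, against 10.23, 10.29 and 10.22 in CD11c- samples. The samples did not overlap, yet the log2 difference was only -0.19 (SE 0.139, adjusted p = 0.659). Ldhb had 5.80, 5.76 and 5.16 in CD11c+ samples, against 6.07, 7.32 and 6.06 in CD11c- samples. Its CD11c+ mean was not above background, and the log2 difference of -0.91 (SE 0.278) had an adjusted p of 0.283. The second probe set of Ldhb, above background in neither fraction, gave -0.37 with overlap and was higher in CD11c+ cells by 0.52 in mouse A.

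Pyruvate dehydrogenase passes pyruvate to the mitochondrial cycle, and its kinases switch it off. Pdk1 had 5.60, 5.32 and 5.87 in CD11c+ samples, against 6.68, 6.77 and 6.68 in CD11c- samples. The samples did not overlap. The CD11c+ mean was not above background, and the CD11c- mean lay 1.93-fold over that level. The fitted log2 difference was -1.11 (SE 0.175, adjusted p = 0.092). Pdk3, another kinase of the complex, lay the other way, with 6.55, 6.82 and 6.38 in CD11c+ samples, against 5.11, 5.92 and 6.15 in CD11c- samples. Its CD11c- mean was not above background, although the CD11c- samples of mice C and D were. The CD11c+ mean lay 1.76-fold over that level. The fitted log2 difference was 0.86 (adjusted p = 0.287), from 0.23 in mouse D to 1.44 in mouse A. Pdha1, a subunit of the enzyme itself, had 7.06, 7.03 and 7.50 in CD11c+ samples, against 7.22, 7.62 and 6.45 in CD11c- samples. It differed by 0.10 with an interval of -0.84 to 1.04, and its mice disagreed in sign. Its second probe set, above background in both fractions, gave -0.50, lower in 3 of 3 mice but with overlap (adjusted p = 0.268).

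The 5 measured pentose phosphate genes all had a difference above 0, with a median of 0.59. None passed the adjusted p. 4 of the 5 had an unadjusted p under 0.05 with CD11c+ cells higher, where 7.38% of all genes and 12.5% of those with a mean above background did. In 3 of the 5 all CD11c+ samples lay above, where 7.48% and 12.2% of these genes did. Pgd, 6-phosphogluconate dehydrogenase, which makes NADPH, had 9.37, 9.11 and 9.38 in CD11c+ samples, against 8.65, 8.04 and 7.56 in CD11c- samples. The CD11c+ samples lay close together and above the CD11c- samples, which spread over a wider range. The log2 difference was 1.20 (SE 0.25, adjusted p = 0.148), and its other 2 probe sets gave 1.23 and 0.77.

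Taldo1 and Tkt, transaldolase and transketolase, exchange carbon units between sugars of both pathways. Taldo1 had 9.87, 10.19 and 9.88 in CD11c+ samples, against 9.66, 8.79 and 8.48 in CD11c- samples, with a log2 difference of 1.00 (SE 0.294, adjusted p = 0.266). The gap was 0.20 in mouse A and 1.39 and 1.40 in mice C and D. Tkt had 9.73, 9.57 and 9.43 in CD11c+ samples, against 9.09, 8.80 and 9.07 in CD11c- samples, with a log2 difference of 0.59 (SE 0.147, adjusted p = 0.2). Neither gene overlapped between fractions by the probe set used. The second probe set of Tkt, above background in neither fraction, gave 0.07 with overlap. Rpia, ribose 5-phosphate isomerase, had 7.26, 7.20 and 7.82 in CD11c+ samples, against 6.99, 6.87 and 7.29 in CD11c- samples. The samples overlapped although the gene was higher in CD11c+ cells in 3 of 3 mice, with a log2 difference of 0.38 (adjusted p = 0.346). Pgls, 6-phosphogluconolactonase, differed by 0.34 (adjusted p = 0.609), from -0.03 in mouse A to 0.85 in mouse D.

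**Figure D3:**
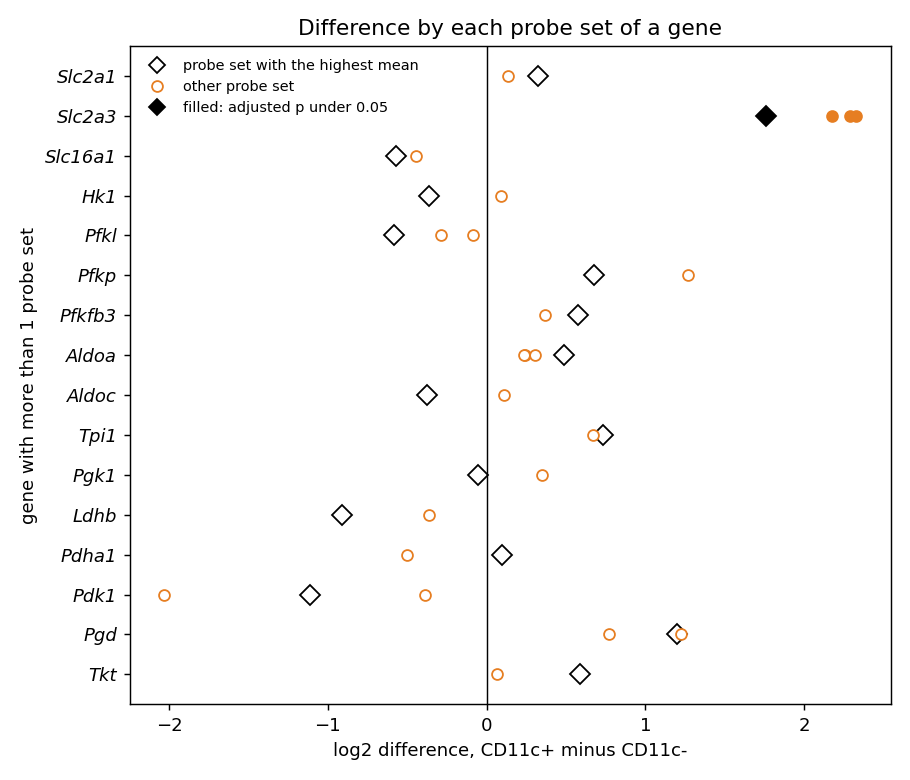
Log2 difference, CD11c+ minus CD11c- (x axis), by each probe set of the genes that have more than 1 (y axis), with diamonds for the probe set used in the text, circles for the others and filled symbols for an adjusted p under 0.05. All 4 probe sets of Slc2a3 are filled, and those of Hk1, Aldoc, Pgk1 and Pdha1 lie on both sides of 0.

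Other genes of the same routes were set beside the 30. Of 31 further genes of glycolysis and glucose entry, 0 passed in either direction and the median log2 difference was -0.14, but 16 of the 31 were above background in neither fraction. The fitted ends were -1.08 for Galm, galactose mutarotase, which was above it in neither, and 0.65 for Eno3, the muscle enolase, which was above it in CD11c+ cells alone. Their fractions did not overlap for 4 genes with CD11c+ above (12.9%) and 5 with CD11c+ below (16.1%), against 7.48% and 12.5% of all genes. Of 10 further pentose phosphate genes, 0 passed and the median was -0.28, with fitted ends of -1.13 for Tktl1, a transketolase-like gene above background in CD11c- cells alone, and 0.18 for Prpsap2. Before adjustment, 3 of these 10 had a limma p under 0.05 with CD11c+ cells lower, where 7.42% of all genes did. With CD11c+ cells higher it was 0, where 7.38% did. All CD11c+ samples lay below for 2 (20%) and above for 0, against 12.5% and 7.48% of all genes. Of 9 genes from pyruvate to acetyl-CoA, 0 passed and the median was -0.15, with fitted ends of -0.44 for Pdk2, a further pyruvate dehydrogenase kinase, and 0.92 for Dlat, a subunit of the dehydrogenase that was above background in neither fraction.

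Of 19 genes of the tricarboxylic acid (TCA) cycle, 0 passed and the median was 0.05, at 0.65 in mouse A, 0.03 in mouse C and -0.01 in mouse D. The fitted ends were 1.74 for Idh1, the cytosolic isocitrate dehydrogenase (adjusted p = 0.102), and -0.85 for Aco1, cytosolic aconitase, neither of them above background in either fraction. The fractions did not overlap for Idh1 and for 2 mitochondrial enzymes named after their values were seen. All CD11c+ samples lay above for these, 15.8% of the list, against 7.48% of all genes. Idh2, which makes NADPH, had 8.94, 9.48 and 9.27 in CD11c+ samples, against 7.88, 7.57 and 7.34 in CD11c- samples (log2 difference 1.63, adjusted p = 0.074). Dlst, a subunit of 2-oxoglutarate dehydrogenase, had 7.29, 7.42 and 7.45 in CD11c+ samples, against 6.18, 6.48 and 6.06 in CD11c- samples (log2 difference 1.15, adjusted p = 0.065).

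Of 20 regulators of glycolysis, 1 was higher and 0 lower, with a median of -0.05. Mxd1, which encodes a partner of MAX that opposes MYC at E-boxes, had 8.70, 9.01 and 9.25 in CD11c+ samples, against 6.93, 7.51 and 7.28 in CD11c- samples. It was higher in CD11c+ cells in 3 of 3 mice, with a log2 difference of 1.75 (adjusted p = 0.0278). Hif1a, the oxygen-regulated subunit of the hypoxia-inducible factor, lay at the low end of this list. It had 6.89, 6.24 and 6.14 in CD11c+ samples, against 7.47, 7.19 and 7.11 in CD11c- samples, without overlap and with a log2 difference of -0.83 (adjusted p = 0.115).

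**Figure D4:**
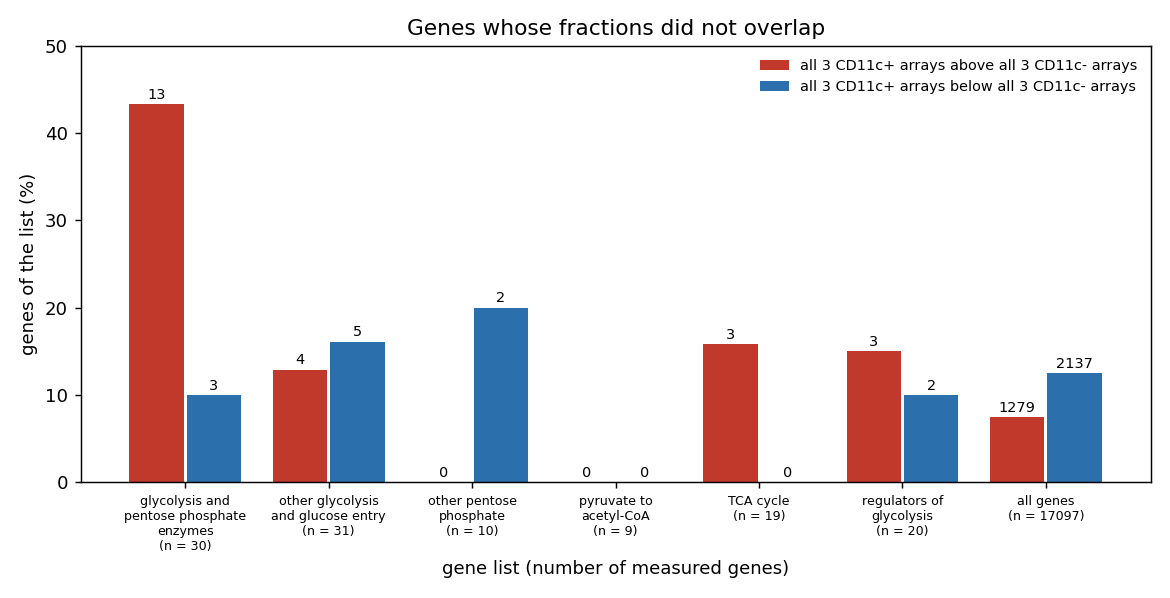
Share of each gene list in percent (y axis) whose CD11c+ samples all lay above (red) or all below (blue) the CD11c- samples, with the count over each bar and the number of measured genes under each list (x axis). For the 30 glycolysis and pentose phosphate genes the red bar stands at 13 genes, 43.3%, against 7.48% of all genes.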

How the data were processed

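Gene expression was measured on single-colour Affymetrix mouse genome arrays (PM Strip) in 6 samples of 300 sorted cells, a CD11c+ and a CD11c- fraction from each of 3 mice. The deposited values are log2 RMA signals per probe set, made by the authors from GeneAtlas scans, and the submitters' processing notes give no version of RMA. Because RMA makes the arrays alike in distribution, a difference is relative to the rest of the array, and a shift in total RNA per cell is not seen.

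Of 45141 probe sets, 28898 name 1 gene, 551 several and 15692 none in the platform annotation used here. The deposited log2 values were fitted in R 4.3.3 with limma 3.58.1 (lmFit, eBayes) with mouse as a fixed block, which leaves 2 residual degrees of freedom, two-sided, with Benjamini-Hochberg adjustment over all probe sets and a threshold of 0.05. The labels give both fractions of a mouse the same letter. The deviations of the 2 fractions of a mouse from their group means correlated at 0.122, 0.0758 and 0.109 over probe sets, against -0.086 to -0.0217 between mice. Intervals are 95% and not adjusted. The procedure was tested on simulated data. Figures and promoter searches used Python 3.11.15.

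The members and the lists of other pathways and cell types were chosen with earlier results of these data known. Every member could be named. Of the other pathway lists, genes past the threshold and the highest and lowest of each list were named, and of the cell type lists the counts, the mean levels and the defining markers. Alternatives left out the block, made it random, averaged probe sets, dropped dim probe sets, rescaled the arrays, let the variance follow the mean, and left out each mouse. The counts of non-overlapping genes under these alternatives were added after the data were seen.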

Additional observations from a re-analysis of the deposited data

How the results depend on the processing

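With the mouse block, 1 of the 30 genes was higher and 0 lower, and 432 probe sets were higher and 76 lower. With no replicate block these counts were 1, 1, 684 and 211, and Slc2a3 missed the threshold (adjusted p = 0.0692) while Slc16a3 (0.0105) and Pdk1 (0.0302) passed. With a random replicate block they were 2, 1, 812 and 316. Higher genes numbered 2 with probe sets averaged, 2 without dim probe sets, 2 with a variance trend, and 0 both with cyclic loess and with arrays centred on their median. Higher probe sets numbered 684 with the trend. Lower probe sets numbered 140 without dim ones, 207 with the trend and 41 with loess. With probe sets averaged the fit was over 17097 genes, of which 151 were lower, a count not comparable with those of probe sets.

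Arrays centred on the CD3 chains, which moved the median of all genes to 0.65, gave 22 higher genes, 22412 higher and 232 lower probe sets, and a median of the 30 of 1.07. All CD11c+ samples then lay above for 24 genes and below for 0, against 68% and 0.55% of all genes. Every gene was raised by the same amount. The difference turned above 0 for Hk1 (0.38), Pfkl (0.16), Pfkm (0.64), Aldoc (0.36), Gapdh (0.70), Pgk1 (0.68), Ldha (0.55), Slc16a1 (0.17) and Fbp1 (0.67). It also turned for Pgk1 (0.15) and Pdha1 (-0.20) with probe sets averaged, and for Gapdh (0.059), Pgk1 (0.032) and Fbp1 (0.016) with loess.

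Leaving out 1 mouse gave 0 to 1 higher genes, 0 to 348 higher and 0 to 44 lower probe sets, and a median of 0.16 to 0.41. The genes with CD11c+ below were 4 to 5, where 23.9% to 30.6% of all genes were, and those above 13 to 16, where 12.6% to 17.4% were. The 0 probe sets came without mouse A, and the 1 higher gene, found without mouse D, was Slc16a3 (limma, adjusted p = 0.0408). The difference ran over 0 for Aldoc (-0.77 to 0.037), Fbp1 (-0.23 to 0.030), Pgk1 (-0.15 to 0.012), Eno2 (-0.014 to 0.11), Slc16a1 (-0.95 to 0.010), Gapdh (-0.089 to 0.038) and Pdha1 (-0.38 to 0.44). The cause of these changes was not tested. Besides the 21 turned values, 275 values of single genes under an alternative kept direction and side of the threshold, 26 newly passed it and 6 no longer did. Slc16a3 passed in 7 of the 11 alternatives and Slc2a3 in 5.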
